A study of Mus musculus with 6 samples.

Results

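The genes described here are 6 chemokines that effector T cells make: Ccl3, Ccl4, Ccl5, Ccl1, Xcl1 and Ccl9. They were taken by name, as every probe set whose annotation gives exactly 1 of these symbols, which gave 7 probe sets for 6 of the 18193 genes with a named probe set. Ccl9 had 2 probe sets and each other gene had 1. C57BL/6 mouse CD4 T cells, either wild type or Ezh2 KO, were grown in 3 kinds of culture, and each of the 6 resulting groups was read on 1 Affymetrix array. Naive cells from spleen were stimulated for 2 days with 10 µg/ml antibody to TCRβ together with 1 µg/ml against CD28, in 15 ng/ml IL-2, and then cultured for 3 more days without the 2 antibodies. Th1 cultures also received 1 ng/ml IL-12 and an antibody to IL-4. Th2 cultures received 10 ng/ml IL-4 and an antibody to IFN-γ, and unpolarized cultures received both blocking antibodies. The labels do not say how Ezh2 was deleted, or whether arrays came from separate mice, so each p-value measures only the spread between these arrays, which may be technical. With 1 array per group, that spread also holds any dependence of the genotype difference on culture, which cannot be told apart from noise.

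Chemokines are small secreted proteins that steer cells along a gradient by binding G protein coupled receptors on the cell that responds. Ccl3 (MIP-1α), Ccl4 (MIP-1β) and Ccl5 (RANTES) are inflammatory chemokines that recruit T cells and monocytes, and activated CD8 and Th1 cells are known to secrete them. Ccl9 is a ligand of Ccr1, best known from myeloid cells, Ccl1 (TCA-3) acts on Ccr8, and Xcl1 (lymphotactin) acts on Xcr1, the receptor of cross-presenting dendritic cells. Ezh2 is the enzyme of the Polycomb system that methylates lysine 27 of histone H3.

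Values are deposited linear intensities, and where 3 values are given for a genotype they stand in the order unpolarized, Th1, Th2. Readings under 11.3, the 20th percentile of all values, were raised to that floor before log2 was taken, and readings under 64.4, the median of all values, are called low. All 6 genes passed the filter of 1 reading at or above that median, and 11572 genes did so in all. Ccl4 and Ccl5 passed through arrays of both genotypes. Ccl3, Ccl1, Xcl1 and Ccl9 reached 64.4 on Ezh2 KO arrays only, so those 4 could pass only by being higher there. Array medians ran from 61.3 to 69.1. The Ezh2 probe set, which may lie outside the deleted part, read 6553 to 7677 in wild type and 4876 to 4971 in Ezh2 KO, lower in each culture.

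The 250 bases before the start site are shown for Ccl3, which rose in Ezh2 KO, and for Ccl1, which went both ways. Both are from RefSeq, build GRCm38.p6, minus strand, at chr11:83649379-83649628 and chr11:82179813-82180062. Capitals mark matches, on either strand, to the letters TGTGGT (Runx) or GGAAA (NFAT core), which do not overlap here.

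Ccl3: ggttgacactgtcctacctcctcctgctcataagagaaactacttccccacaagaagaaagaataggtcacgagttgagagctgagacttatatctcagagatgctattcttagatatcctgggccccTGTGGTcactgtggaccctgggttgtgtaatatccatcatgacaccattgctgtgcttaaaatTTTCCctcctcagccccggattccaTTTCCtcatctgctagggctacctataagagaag

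Ccl1: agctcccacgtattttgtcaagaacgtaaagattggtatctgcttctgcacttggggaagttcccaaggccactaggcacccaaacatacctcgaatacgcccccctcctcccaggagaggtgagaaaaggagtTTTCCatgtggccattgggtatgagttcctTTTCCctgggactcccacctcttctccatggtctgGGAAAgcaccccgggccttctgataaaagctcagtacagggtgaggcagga

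The RefSeq promoter table used here held 4 of the 6 genes: Ccl3, Ccl1, Xcl1 and Ccl9. TGTGGT was present once before Ccl3 and once before Xcl1, and in 14% of all 32851 windows of this length. GGAAA was present in all 4 windows, 2 times before Ccl3 and 3 times before Ccl1, and in 55.6% of all windows. TCACAC (T-box) was found once, before Xcl1, against 12.3% of all windows, and TGANTCA (AP-1) once, before Ccl9, against 6.75%. GGGANTTTC (NF-κB) was in 0 of the 4 and in 0.941% of all windows. The dinucleotide CG occurred 2 times before Ccl3, 2 before Ccl9, 3 before Xcl1 and 5 before Ccl1, against a median of 6 over all windows. These letter matches describe the sequences and are not measured binding sites.

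Across the 3 cultures, the first comparison asked whether loss of Ezh2 goes with other levels of the chemokine genes. Ccl5 and Ccl3 rose in Ezh2 KO, Ccl4 was higher in every culture but missed the threshold, and Ccl9, Xcl1 and Ccl1, which were dim, did not pass. By limma with culture as a block and a Benjamini-Hochberg adjusted p under 0.05, 2 of the 6 genes were called higher and 0 lower. Over all genes tested, 8.35% were called higher in Ezh2 KO. All 3 Ezh2 KO readings lay above all 3 wild type readings for 4 of the 6 genes (Ccl3, Ccl4, Ccl5 and Ccl9), against 20.1% of all genes tested. Ccl3 and Ccl9 passed the filter on low values only through Ezh2 KO arrays, so these counts are partly set by that filter. For Ccl9 the highest wild type reading, 46.99, and the lowest Ezh2 KO reading, 51.1, were both low, and the genotypes overlapped on its second probe set.

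Ccl5 was readable on all 6 arrays. Its wild type readings were 142, 524 and 229.95, and its Ezh2 KO readings were 3862, 5712 and 4093. Every Ezh2 KO reading was far above every wild type reading, and within each genotype the Th1 array was the highest. The Ezh2 KO reading was 27.2-fold the wild type reading in unpolarized cultures, 10.9-fold in Th1 and 17.8-fold in Th2. The mean log2 difference was 4.12 ± 0.66 (SD, n = 3 pairs of arrays), or 17.4-fold, with a limma adjusted p of 0.01998. Ranked by that difference, Ccl5 stood at place 35 of the 11572 genes.

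Ccl3 went from low or near-zero signal to moderate signal. The wild type arrays gave 1.33, 33.1 and 1.98 and the Ezh2 KO arrays 101, 236 and 407. The genotypes did not overlap, and all wild type readings were low, 2 of them under the floor. The log2 difference was 3.72 ± 1.26 (SD, n = 3), at least 13.2-fold, with a limma adjusted p of 0.0363. That bound depends on the floor, and with the floor at the 40th percentile the difference was 2.51 (adjusted p = 0.0298). By culture the ratio was at least 8.95-fold in unpolarized, 7.11-fold in Th1 and at least 35.9-fold in Th2 cultures.

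Ccl4, whose gene lies next to Ccl3, was readable on all 6 arrays. Readings were 81.2, 114 and 64.4 for wild type, against 194, 279 and 438 for Ezh2 KO. The wild type Th2 reading, 64.44, lay at the low-signal limit of 64.43. The genotypes did not overlap, with the lowest wild type and the highest Ezh2 KO readings both in Th2 cultures. The ratio was 2.38-fold in unpolarized, 2.44-fold in Th1 and 6.80-fold in Th2 cultures. The log2 difference of 1.77 ± 0.86 (SD, n = 3; 95% interval 0.69 to 2.85) did not pass the threshold (limma adjusted p = 0.0593).

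**Figure D1:**
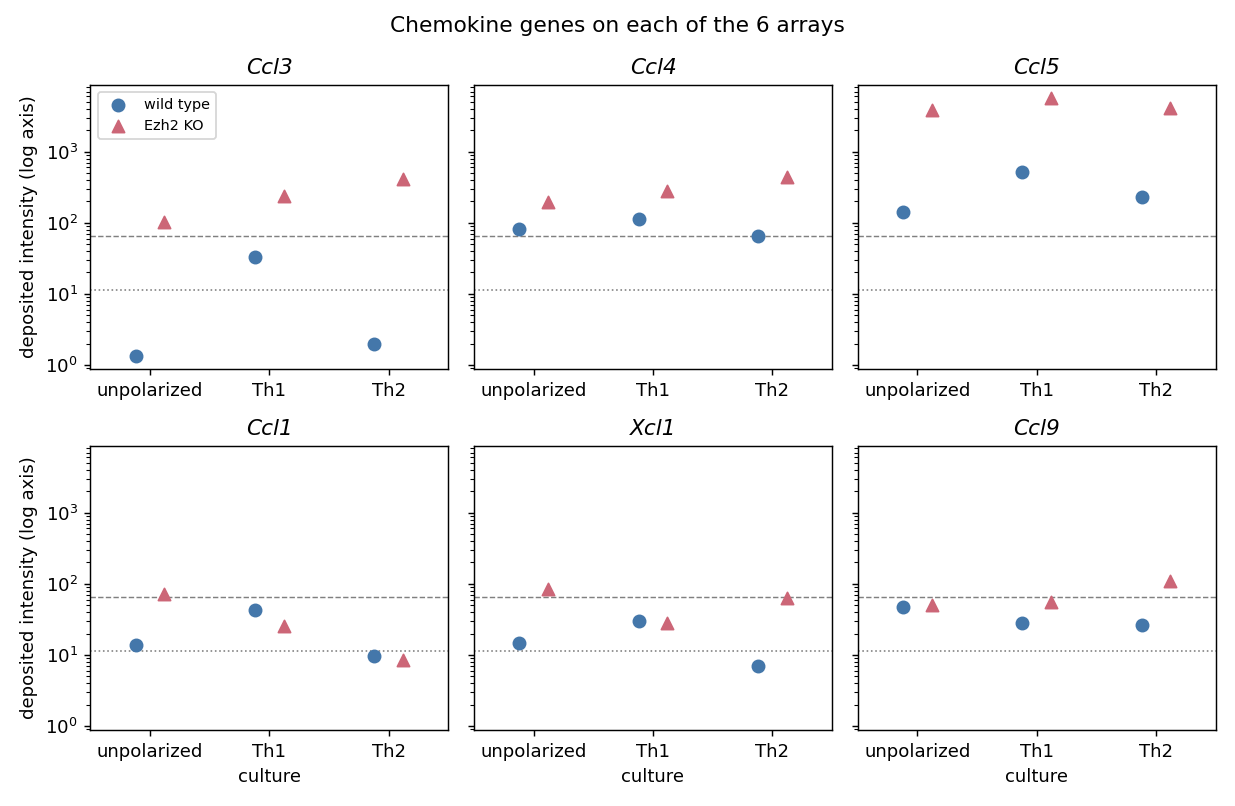
Deposited intensity (log axis) of the 6 chemokine genes on each array, by culture, with circles for wild type and triangles for Ezh2 KO. The dashed line is the median of all values (64.4) and the dotted line the floor (11.3); Ccl5 in Ezh2 KO sits between 3862 and 5712, above wild type readings of 142 to 524, while Ccl1, Xcl1 and Ccl9 stay near or under the dashed line.

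Without any 1 of the 3 cultures, 0 of all genes were called, so that setting could call no chemokine. The log2 difference was then 3.80 to 4.46 for Ccl5 (limma adjusted p 0.0803 to 0.11) and 2.996 to 4.16 for Ccl3 (0.0808 to 0.131). Without the filter on low values 0 of all genes were called too, with 0.0781 for Ccl5 and 0.0988 for Ccl3. Without the floor Ccl3 had a log2 difference of 5.59 and an adjusted p of 0.0536. Ccl4 passed with each array centred on its median (adjusted p = 0.0424), with the floor at the 40th percentile (0.0413), with a filter on the mean (0.0159), with a trended and robust prior (0.0028) and without culture in the model (0.0214).

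Ccl9 was higher in Ezh2 KO in each culture, by very different amounts. Its brighter probe set gave 46.99, 28.2 and 26.8 for wild type and 51.1, 55.5 and 109.95 for Ezh2 KO. Only the Ezh2 KO Th2 reading was above the median of all values. The log2 differences were 0.12 in unpolarized, 0.98 in Th1 and 2.04 in Th2 cultures, a mean of 1.05 ± 0.96 (SD, n = 3) that did not pass (limma adjusted p = 0.161; 95% interval -0.15 to 2.25). The second Ccl9 probe set was low on all 6 arrays, with 20.6, 1.02 and 2.91 for wild type and 2.83, 5.19 and 44.9 for Ezh2 KO. It too was highest in the Ezh2 KO Th2 culture, but it was lower in Ezh2 KO than in wild type in unpolarized cultures.

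Xcl1 read higher in Ezh2 KO in 2 of the 3 cultures, and the genotypes overlapped. Wild type gave 14.9, 30.2 and 6.99, and Ezh2 KO gave 84.4, 28.4 and 62.7. The log2 difference was 2.504 in unpolarized, -0.09 in Th1 and at least 2.47 in Th2 cultures, all from low wild type readings. The mean of 1.63 ± 1.49 (SD, n = 3; 95% interval -0.21 to 3.47) did not pass (limma adjusted p = 0.157), and it was 0.64 with the floor at the 40th percentile.

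Ccl1 had no common direction. From wild type came 13.6, 43.1 and 9.56, and from Ezh2 KO 72.1, 25.4 and 8.37, so the genotypes overlapped. The log2 difference was 2.41 in unpolarized and -0.76 in Th1 cultures, from low wild type readings, and both Th2 arrays were under the floor. The mean was 0.55 ± 1.65 (SD, n = 3; 95% interval -1.50 to 2.59; limma adjusted p = 0.605), and 0.25 with the floor at the 40th percentile. The intervals of Ccl1, Xcl1 and Ccl9 all include 0 and differences of more than 2 on the log2 scale.

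**Figure D2:**
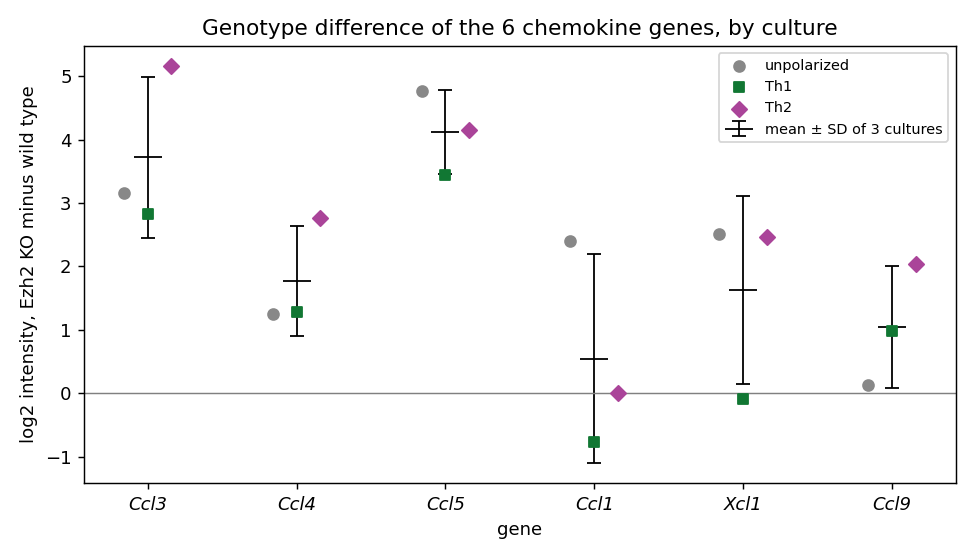
Log2 intensity difference, Ezh2 KO minus wild type, for the 6 chemokine genes, with 1 symbol per culture and the mean ± SD of the 3 cultures in black. Ccl3, Ccl4 and Ccl5 lie above 0 in each culture, with means of 3.72, 1.77 and 4.12; Ccl1 spreads from -0.76 to 2.41.

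Within single cultures there is 1 array per genotype, so these counts have no replicate and no test. In unpolarized cultures 5 of the 6 genes read 2-fold or more higher in Ezh2 KO, against 7.55% of all genes tested; Ccl9 was the exception. In Th1 cultures 3 did (Ccl3, Ccl4 and Ccl5), against 7.28%, with Ccl9 just short at 1.97-fold. In Th2 cultures 5 did, all but Ccl1, against 9.61%. These counts are partly set by the filter on low values. Ccl3 reached its limit on Ezh2 KO arrays only, Ccl1 and Xcl1 only on the Ezh2 KO unpolarized array, and Ccl9 only on the Ezh2 KO Th2 array. The Th2 pair gave the largest ratio of the 3 cultures for Ccl4 and Ccl9 and the unpolarized pair for Ccl5, while the Th1 pair gave the smallest for Ccl3, Ccl5 and Xcl1. The other Ccl3 ratios and the Th2 ratio of Xcl1 are lower bounds and have no order. Whether the genotype difference depends on culture could not be tested with 1 array per combination.

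The second question was how the cultures differ, with genotype as a block. By limma, 0 of the 6 chemokine genes passed for Th1 against unpolarized, Th2 against unpolarized or Th1 against Th2, comparisons that share arrays, and 0% of all genes passed in each. At an unadjusted p under 0.05 there were 632, 775 and 878 genes, among them 1 chemokine, Ccl5 in Th1 against unpolarized (log2 difference 1.22, 95% interval 0.20 to 2.25, limma adjusted p = 0.857). With a trended and robust prior, 0 genes passed in Th1 against unpolarized, 11 higher and 2 lower genes in Th2 against unpolarized, and 5 higher and 26 lower genes in Th1 against Th2, with 0 chemokines among them.

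The order of Th1 and Th2 differed between genotypes for several members, as values of single arrays. In wild type, 4 of the 6 genes (Ccl3, Ccl5, Ccl1 and Xcl1) read 2-fold or more higher in Th1 than in Th2, against 3.78% of all genes, and 0 read 2-fold or more higher in Th2, against 2.89%. In Ezh2 KO, 1 gene, Ccl1, read 2-fold or more higher in Th1, against 2.70%, and 1, Xcl1, in Th2, against 3.38%. Ccl3 was higher in Th1 by 1.55 on the log2 scale in wild type and differed by -0.79 in Ezh2 KO. Ccl4 gave 0.83 and -0.65, and Ccl5 gave 1.19 and 0.48. The wild type readings behind the Ccl3, Ccl1 and Xcl1 values were all low. Those in Th2 were under the floor, so the wild type differences of these genes are lower bounds. With the floor at the 40th percentile Th1 minus Th2 over both genotypes turned from 0.38 to -0.39 for Ccl3 and from 0.13 to -0.37 for Xcl1.

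**Figure D3:**
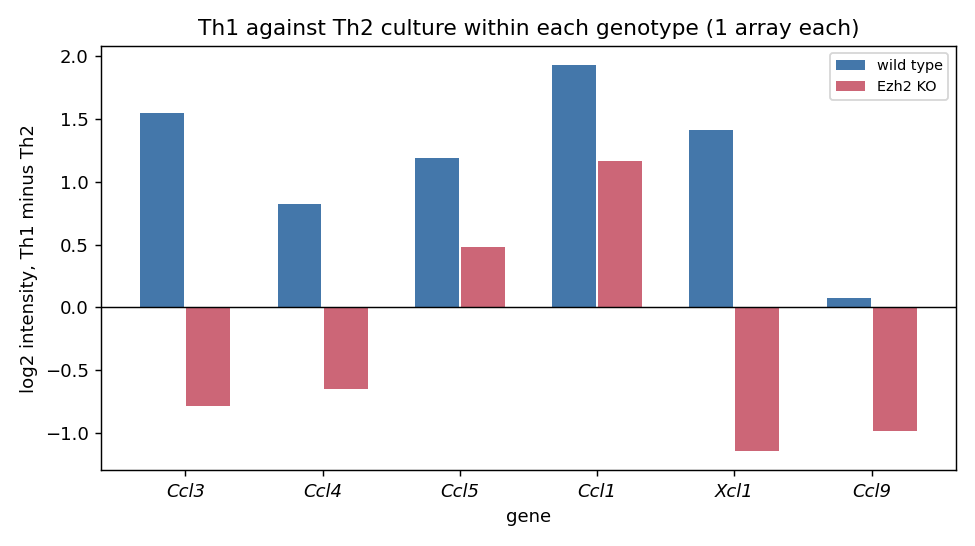
Log2 intensity difference, Th1 minus Th2, of the 6 chemokine genes within wild type and within Ezh2 KO, each bar from 1 array per culture. The 6 wild type bars are above 0 (0.07 to 1.93), whereas Ccl3, Ccl4, Xcl1 and Ccl9 fall below 0 in Ezh2 KO. The Ccl1 bars and the wild type bars of Ccl3 and Xcl1 are lower bounds, because those Th2 readings were under the floor.

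The genes whose pattern over the 6 arrays was closest to each chemokine were found by Pearson's r of the log2 values. The 6 points share the split between genotypes, so a high r is common, with 966 genes above 0.9 for Ccl3 and 1039 for Ccl5. Closest to Ccl5 were Eomes, a T-box factor of cytotoxic and memory T cells (r = 0.999), and Jdp2, an AP-1 family factor (r = 0.998). Closest to Ccl3 were Etv5, an ETS family factor (r = 0.999), and Prdm1, which encodes Blimp-1 (r = 0.996). Esm1 and Tmem140 were closest to Ccl4 (0.995 and 0.994). Socs3, a feedback inhibitor of cytokine signalling, and Dnajb9, a chaperone of the endoplasmic reticulum, were closest to Ccl9 (0.994 and 0.989). Pea15a and Catsperd were closest to Xcl1 (0.992 and 0.991), and Mrpl9 and Snhg16 to Ccl1 (0.981 and 0.969), for which only 31 genes were above 0.9.

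The profiles behind these coefficients differ in detail. Etv5 gave 80.2, 168 and 74.8 for wild type and 321, 547 and 764 for Ezh2 KO. Like Ccl3, it was highest in Th1 within wild type and in Th2 within Ezh2 KO. Eomes gave 161, 313 and 192 for wild type and 1071, 1439 and 1088 for Ezh2 KO, with Th1 highest in both genotypes, as for Ccl5.

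**Figure D4:**
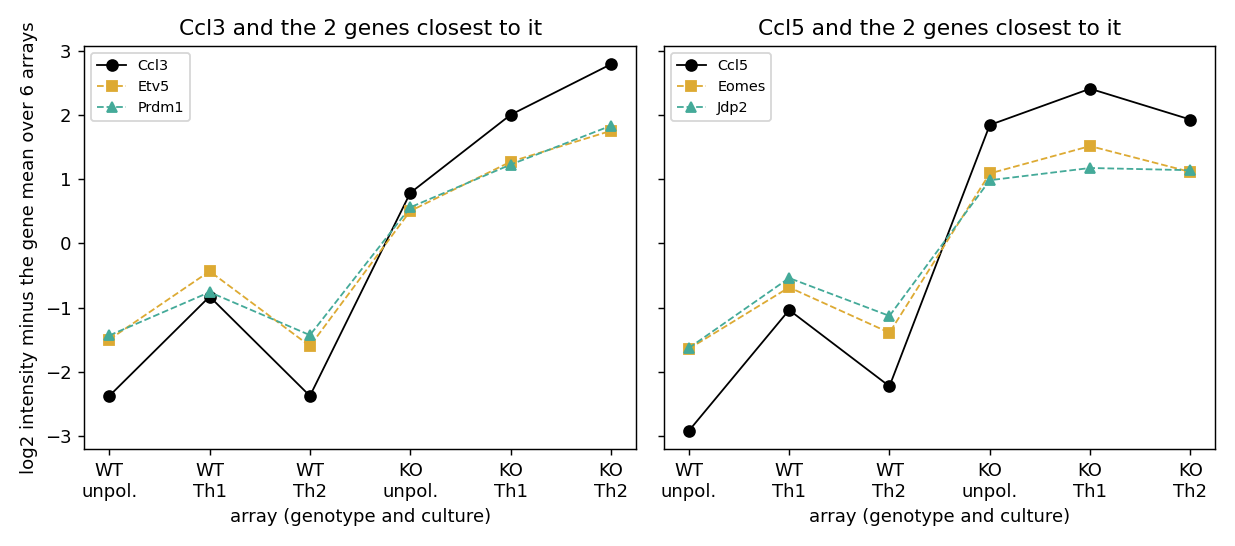
Log2 intensity minus the gene's mean over the 6 arrays, for Ccl3 with Etv5 and Prdm1 (left) and Ccl5 with Eomes and Jdp2 (right), against array. The 3 lines of each panel share their order of arrays closely (r of 0.996 to 0.999), and the chemokine has the widest span.

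Of 32 other chemokine genes, 29 had a named probe set and 19 of those were low on all 6 arrays. Of the 10 tested, 1 rose, 1 fell and 8 did not pass, while over all genes tested 966 were called higher and 924 lower. The median log2 difference of the 10 was 0.33, against -0.07 over all genes tested. Both genes called passed the filter on low values only through the genotype where they are high. Cxcl10, an interferon-induced ligand of Cxcr3, gave 4.51, 28.8 and 26.6 for wild type and 175, 218 and 131 for Ezh2 KO, a rise of at least 3.06 ± 0.83 (limma adjusted p = 0.0295). Ccl27a, an epithelial chemokine that acts on Ccr10, fell by 1.82 ± 0.38 (86.1, 73.4 and 112 to 18.2, 26.1 and 34.1; limma adjusted p = 0.0259). Among the values that did not pass were Cxcl11 at 1.00 ± 0.48 (adjusted p = 0.0627) and Cxcl13 at 0.68 ± 0.26 (adjusted p = 0.0532).

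Of the 5 chemokine receptors analysed here, only Ccr1, a receptor of Ccl3, Ccl5 and Ccl9, had enough signal to test. It gave 28.8, 32.03 and 27.1 for wild type and 141, 176 and 962 for Ezh2 KO, so that Ezh2 KO Th2 was again the highest array. The difference of 3.30 ± 1.60 (SD, n = 3) did not pass (limma adjusted p = 0.0575). Ccr8, the receptor of Ccl1, Xcr1, the receptor of Xcl1, Ccr3 and the decoy receptor Ackr2 were low on all 6 arrays.

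**Figure D5:**
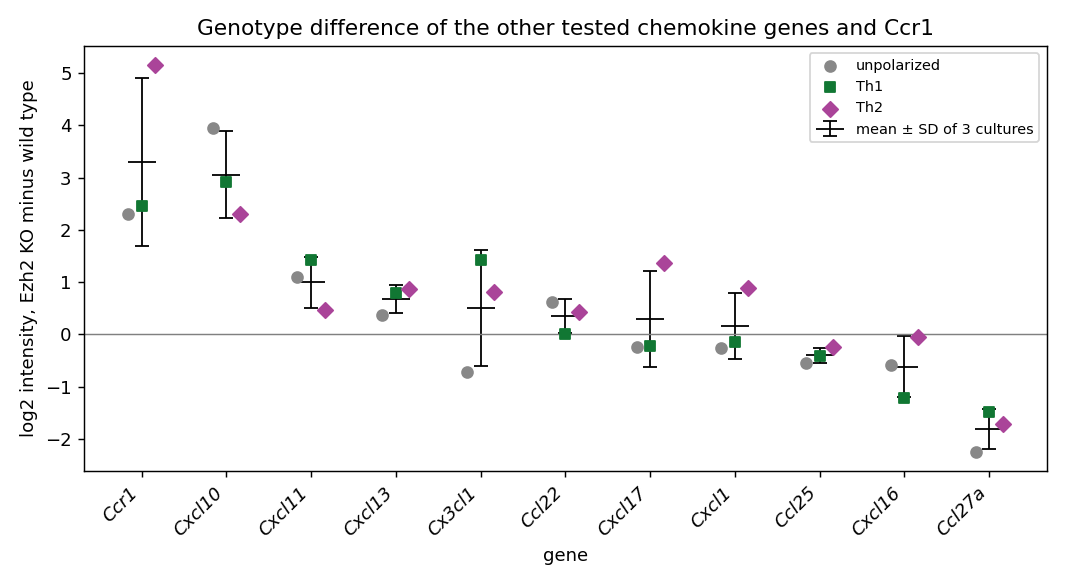
Log2 intensity difference, Ezh2 KO minus wild type, of the 10 other tested chemokine genes and Ccr1, with 1 symbol per culture and the mean ± SD in black. Ccr1 (3.30) and Cxcl10 (3.06) have the highest means and Ccl27a (-1.82) the lowest.

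Along the chromosome, Ccl5, Ccl9, Ccl6, Ccl3 and Ccl4 follow one another on chromosome 11, Ccl1 lies in a second chemokine cluster of that chromosome with Ccl2, Ccl7, Ccl11, Ccl12 and Ccl8, and Xcl1 is on chromosome 1. Among the other genes within 5 protein-coding genes of a member, 13 of 31 were tested. By limma 0 of the 13 rose and 0 fell, beside 966 higher and 924 lower of all 11572 genes tested. At an unadjusted limma p under 0.05 there were 5 of the 13, beside 4479 of the 11572. With a trended and robust prior 0 were higher and 4 lower, beside 1803 higher and 2306 lower of the 11572. The tested neighbours of Xcl1 ran from -1.88 (Atp1b1, limma adjusted p = 0.0557) to 0.52 (Tbx19). On chromosome 11 the 5 tested neighbours, Taf15, Heatr6, Zfp830, Lig3 and Rffl, had log2 differences of -0.57 to 0.04. Ccl6, which lies between Ccl9 and Ccl3, read at most 44.8. All 5 of the cluster mates of Ccl1 were low on every array.

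Transcription factors known for effector cytokine and chemokine genes were tested as a list beside the members. Of 21 tested, 9 rose, 2 fell and 10 did not pass, with a median of 0.92, beside 8.35% of all genes called higher and a median of -0.07. Eomes rose by 2.48 ± 0.27, Prdm1 by 2.41 ± 0.73, Id2, an inhibitor of E proteins, by 2.04 ± 0.14, and Zeb2, a repressor of transcription, by 1.47 ± 0.31. Zeb2 was low on all 3 wild type arrays and passed the filter only through Ezh2 KO. Smaller rises were those of Bhlhe40 (1.22 ± 0.25), Irf1 (1.10 ± 0.36), Batf (1.07 ± 0.29), Jun (0.95 ± 0.13) and Runx3 (0.92 ± 0.23). Tbx21 gave 1.59 ± 1.15 and did not pass (limma adjusted p = 0.108). The 2 that fell, named after their values were seen, were Runx1 by 0.77 and Fos by 0.77. Klf13, a factor named for its binding to the human CCL5 promoter, gave -0.09 ± 0.21 (limma adjusted p = 0.606).

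Of the other secreted products of effector T cells, 13 of 16 were tested, 8 rose, 0 fell and 5 did not pass, with a median of 2.66, beside 966 higher and 924 lower of all 11572 genes and their median of -0.07. Granzyme A (Gzma) rose by 8.87 ± 0.67, Ifng by at least 5.07 ± 0.61, Il10 by 4.44 ± 1.73 and Csf2, which encodes GM-CSF, by 3.57 ± 0.07. Gzma, Ifng and Il10 were low on all 3 wild type arrays and passed the filter only through Ezh2 KO, so their sizes rest on low readings (25.0 to 45.2 for Il10 and 29.1 to 51.7 for Gzma). Tnf and Lta did not pass, with 0.14 ± 0.67 and -0.25 ± 0.76. The activation induced genes had 2 of 16 higher, 2 lower and 12 not passed, with a median of 0.18. Ier3 rose by 1.92 ± 0.46 and Tnfrsf9 (4-1BB) by 1.68 ± 0.36, and Nr4a1 fell by 0.69 ± 0.24 and Egr3 by 0.61 ± 0.12.

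Cells other than CD4 T cells also make these chemokines, so their markers are given beside the Ccl3 and Ccl5 rises. In bulk RNA, more cells of a type and more RNA per cell cannot be told apart. For comparison with the marker calls, 966 (8.35%) of all 11572 genes tested were called higher in Ezh2 KO and 924 lower. The labelled CD4 T cells had Cd4 at 300.2 to 548 and the CD3 chains at 1485 or more on every array, and of 8 CD4 T cell markers 7 did not pass and 1 fell. The CD8 chains Cd8a and Cd8b1 (2 of 2 tested, 0 passed) summed to 389 to 414 in wild type and 374 to 539.8 in Ezh2 KO. Of 8 NK and NKT cell markers 7 were named, 2 were tested and both rose, Cd160 by 3.71 ± 0.33 and Fcer1g by at least 2.05 ± 0.55. Fcer1g was low on all 3 wild type arrays and passed the filter only through Ezh2 KO. The sum of the 7 was 196 to 210.4 in wild type and 933 to 1108 in Ezh2 KO, while Ncr1, Klra8, Klre1, Tyrobp and Zbtb16 were low on all arrays. In Ezh2 KO that sum was mostly Cd160, at 704 to 873, against 44.7 to 80.0 for Cd160 in wild type. Of 5 gamma delta T cell markers 2 were named and Cd163l1 rose by 1.57 ± 0.39, with sums of 65.7 to 127 and 183 to 213.

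Myeloid cells are a known source of Ccl9, Ccl3 and Ccl4, and mast cells of Ccl1. Of 15 myeloid and dendritic cell markers 9 were tested, 3 rose (H2-Aa, Mpeg1 and Cd74) and 0 fell. Csf1r (-0.34), Fcgr1 (-0.11), Adgre1 (0.11), H2-Ab1 (0.28), Cst3 (0.41) and Cd68 (0.55) did not pass. Over all 11572 genes tested, 8.35% were called higher and 924 genes lower. Mpeg1 was low on all 3 wild type arrays and passed the filter only through Ezh2 KO. The sums of these markers were 4251 to 4812 in wild type and 6109 to 9314 in Ezh2 KO. They were mostly Cst3 and H2-Ab1, and in Ezh2 KO also H2-Aa. Lyz2, Itgam, Itgax, Cd14, S100a8 and S100a9 were low on all 6 arrays. Of 7 mast cell and basophil markers 3 were tested, 0 rose and Gata2 fell by 1.85 ± 0.75, with sums of 234 to 248 and 340.3 to 1294. Gata2 was low on all 3 Ezh2 KO arrays and passed the filter only through wild type. The highest sum of these markers was in the Ezh2 KO Th2 array, where Cpa3 read 1061 and Mcpt8 64.1, just under the limit. Mcpt8, Fcer1a, Ms4a2 and Hdc were low on all 6 arrays. Of 6 platelet markers 4 were tested and Itgb3 rose by 2.002 ± 0.14, with sums of 886 to 1393 and 2929.9 to 4359, and Gp9 and Treml1 were low throughout. These sums were mostly Itgb3, with 582 to 1015 in wild type and 2583 to 4002 in Ezh2 KO. Itga2b (-0.35), Gp1bb (0.32) and Gp5 (-0.02) did not pass. Of 6 B cell markers 3 were tested, Ms4a1 rose by 2.46 ± 1.05 and Ighm fell by 0.79 ± 0.17, and Cd79a and Pax5 were low on all 6 arrays. Their sums, 7341 to 8634 and 4414 to 5843, were mostly Ighm, with 7221 to 8368 in wild type. The part of any such cells in the chemokine differences was not tested.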

How the data were processed

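RNA from 6 cultures was hybridized to 6 arrays, 1 for each genotype and culture. The authors deposited linear intensities. Affymetrix Expression Console is named, without a version, per the submitters' processing notes, with a summarization not given in the sources used here. All arrays had a mean of 500.003 after trimming 2% at each end, so they had been scaled to a common target.

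Of 45101 probe sets, 64 controls were left out, and 34945 had 1 gene symbol, 932 several and 9160 none; symbols were matched to RefSeq GRCm38.p6 through Entrez identifiers (34741 of the named probe sets, 0 symbols updated). Values were floored at 11.33 and taken to log2, and the probe set with the highest mean log2 stood for its gene. An additive model of culture and genotype (limma 3.58.1, R 4.3.3, 2 residual degrees of freedom, eBayes) was fitted to the 11572 genes with a reading at or above 64.43, with Benjamini-Hochberg adjustment and a threshold of 0.05. Where only the lower reading of a pair was under the floor, the log2 difference is too small, and genotype folds are given as lower bounds. For Ccl1, with both Th2 readings under the floor, the mean genotype difference was 0.55 with the floor and 0.48 without it. The fit was tested on simulated data. Signal over background, and the number of arrays, limit the precision. Members and gene lists were chosen with earlier results of these data known. Genes named were the members, Ezh2, up to 4 genes of each list past the threshold with the largest differences, the 2 nearest profiles per member, and neighbours; others were named after their values were seen.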

Additional observations from a re-analysis of the deposited data

Results flagged for a closer look

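Opposite signs in matching comparisons drew attention to 5 of the 6 chemokine genes. Each value rests on 1 array per group, and the differences between groups were not tested.

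The genotype difference (log2, Ezh2 KO minus wild type) had opposite signs between cultures for 2 genes. Ccl1 gave 2.41 in unpolarized and -0.76 in Th1 cultures. Xcl1 gave 2.504 in unpolarized, -0.089 in Th1 and at least 2.47 in Th2 cultures.

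Th1 minus Th2 had opposite signs in wild type and Ezh2 KO for Ccl3 (1.55 and -0.79), Ccl4 (0.83 and -0.65), Xcl1 (1.41 and -1.14) and Ccl9 (0.074 and -0.99). The wild type values of Ccl3 and Xcl1 are lower bounds, with Th2 readings under the floor. Th1 minus unpolarized did so for Ccl1 (1.67 and -1.50), Xcl1 (1.02 and -1.57) and Ccl9 (-0.74 and 0.12). Th2 minus unpolarized did so for Ccl4 (-0.33 and 1.18) and Ccl9 (-0.81 and 1.10). Apart from Ccl4, every wild type reading among these was under the low-signal limit of 64.43, and the wild type Th2 reading of Ccl4 was 64.44.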

How the results depend on the processing

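The count of chemokine genes called higher in Ezh2 KO, 2 with the settings used, was 0 without the filter on low values, 1 without the floor (the cause was not tested) and 0 to 0 with any 1 culture left out. By limma the first and last of these settings called 0 of all genes, with 4711 and 2952 to 3227 at an unadjusted p under 0.05, so every list count is 0 there. Ccl3 and Ccl5 kept their direction in all alternatives that tested them (log2 2.51 to 5.59 in 12 and 3.80 to 4.46 in 13) and passed in 7 and 9. Ccl3 was not tested with the filter on the mean. Ccl4 was higher in all 13 (1.27 to 2.03) and passed in 5. Ccl1 turned to -0.38 without the unpolarized pair and passed in 0 of 12, as did Xcl1 and Ccl9. Over all genes, 966 higher and 924 lower became 0 and 0 of 18193 without the filter, 860 and 411 with median centring, 1380 and 1856 with the filter on the mean, 1803 and 2306 with the trended prior, and 1267 and 1571 without the culture block. With the floor at the 40th percentile the Th1 minus Th2 difference over both genotypes turned from 0.38 to -0.39 for Ccl3 and from 0.13 to -0.37 for Xcl1, and went from 1.55 to 0.10 for Ccl1. For the culture comparisons 0 of the 6 genes passed in each alternative run, the leave-outs of single arrays included. The fit compared the genotypes within each culture (3 pairs of arrays), and the fit without the culture block is the unpaired one. The labels carry no replicate numbers.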

Other observations

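The Ezh2 KO Th2 array held the highest of the 6 readings for several genes beside Ccl3, Ccl4, Ccl9 and Ccr1. Il10 read 3891 there against 284 and 361 in the Ezh2 KO unpolarized and Th1 cultures, Il13 read 555 against 75.2 and 68.9, and Il5 842 against 57.4 and 27.8. The mast cell protease Cpa3 read 1061 against 92.7 and 96.9. The basophil protease Mcpt8 was also highest there, at 64.1 against 12.4 and 2.01, though that reading was just under the low-signal limit. These genes were picked after their values were seen, and the group has 1 array.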
